A study of Homo sapiens with 6 samples.

Results

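Keratins are the intermediate filament proteins of epithelial cells, and 10 of their genes were followed here in PANC-1 cells treated with siRNA against the transcription factor SOX9. The members were the rows of the deposited table with the symbols KRT7, KRT8, KRT10, KRT15, KRT17, KRT18, KRT19, KRT80, KRT81 and KRT86, chosen by name as keratins used to mark epithelium and duct. They are 10 of the 19830 genes in the table, and 9 of them were tested; KRT17 was not. PANC-1 is a cultured cell line that was established from a ductal adenocarcinoma of the human pancreas. The cells were transfected for 48 hours with 25 nM of SOX9 siRNA or 25 nM of control siRNA. Each condition had 2 RNA libraries, made from transfected cells that were pooled at harvest, and no label says that the libraries of a condition were separate cultures. The p-values thus rest on how far these libraries differed, a spread that the authors' test draws toward that of genes of like count. That spread may be technical. Another 2 libraries of the series, SOX9 chromatin immunoprecipitation from untreated cells, were not analysed here.

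A keratin filament is built from pairs of 1 acidic type I and 1 basic type II chain, so cells make the types together. KRT8 (type II) and KRT18 (type I) are the usual pair of simple, single-layered epithelia, and KRT7 (type II) and KRT19 (type I) are added in ducts, including those of the pancreas. KRT15 belongs to basal cells, KRT10 to the upper layers of stratified epithelium, and KRT17 to basal cells and injured or activated epithelium. KRT80 is a type II keratin found in many epithelia, and KRT81 and KRT86 are type II keratins of the hair shaft. Plakins and desmosomes anchor the filaments at the cell surface.

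The table holds the authors' DESeq2 comparison and no value for a single library, so levels are given as means over the 4 libraries. The fold changes were read as SOX9 siRNA over control siRNA because SOX9, the target, had a negative value; the headers do not name the numerator, and every direction below would turn if this reading were wrong. By the authors' deposited table, SOX9 stood at 55.9% of its control level (95% interval 39.2% to 79.8%, adjusted p = 0.0643), so the knockdown itself did not pass the 0.05 threshold. In bulk RNA, fewer cells of a kind and less RNA per cell cannot be told apart. Of the defining genes of duct and simple epithelium, KRT8, KRT18 and KRT19 were abundant, CLDN4 had a mean normalized count of 12455 and CDH1 of 1426, while CFTR had 1.83 in the authors' deposited table. The 6 acinar genes in the table reached at most 5.6, and the mesenchymal filament gene VIM had 133073.

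Promoter sequence was at hand for 2 of the 10 members, KRT8 and KRT10, in RefSeq's tables on build GRCh38.p14, and both are shown because KRT8 had the highest log2 fold change of the tested members, while KRT10, an epidermal keratin, had a value near 0. Each line is the 250 bases before a gene start, 5′ to 3′ on the gene's strand; capitals mark ACAAAG or ACAATG, cores of SOX binding motifs, on either strand (CTTTGT is ACAAAG on the opposite strand), and TATAAA. The KRT8 window is chr12:52926470-52926719, minus strand, and the KRT10 window chr17:40822615-40822864, minus strand.
KRT8: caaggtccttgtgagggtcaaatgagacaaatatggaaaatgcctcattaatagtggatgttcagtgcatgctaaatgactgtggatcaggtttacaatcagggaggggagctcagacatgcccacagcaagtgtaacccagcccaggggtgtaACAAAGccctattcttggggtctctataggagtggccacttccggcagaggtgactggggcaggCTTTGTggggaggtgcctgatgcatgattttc
KRT10: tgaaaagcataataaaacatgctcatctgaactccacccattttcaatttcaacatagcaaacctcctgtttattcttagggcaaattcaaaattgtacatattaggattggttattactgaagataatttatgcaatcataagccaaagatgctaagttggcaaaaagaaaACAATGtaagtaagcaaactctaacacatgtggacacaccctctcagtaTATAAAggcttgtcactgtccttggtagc

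The KRT8 window held the ACAAAG core 2 times, 96 and 32 bases before the start, and no TATAAA. KRT10 held ACAATG 1 time, 78 bases before the start, and TATAAA 29 bases before it. Of 35116 promoter windows of this length, 21.2% held at least 1 such SOX core, 3.69% held at least 2, and 10.7% held TATAAA, on either strand. The KRT8 window lies inside the gene's RefSeq span, not at its outer end, and RefSeq lists 4 curated transcripts for KRT8, so which start these cells used is not shown by the table. A match of letters is no binding site, and binding was not measured here.

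No keratin passed the threshold. Of the 9 tested members, 0 were called by the authors' DESeq2 test at an adjusted p under 0.05, against 1.81% of all 14063 tested genes. At an unadjusted p under 0.05 there were 4 of 9, against 11.1% of all tested genes. The 3 with higher values were KRT8, KRT18 and KRT19 (4.98% of all tested genes were higher at that level), and the 1 with a lower value was KRT80 (6.15%). At an adjusted p under 0.1, KRT8 and KRT80 passed, 2 of 9, against 2.62% of all tested genes. The median log2 fold change of the 9 members was 0.08, beside -0.02 over all tested genes, and 6 were above 0 (47.9% of all tested genes were). The members were chosen with earlier results of these data known, so these counts describe them and test nothing.

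**Figure D1:**
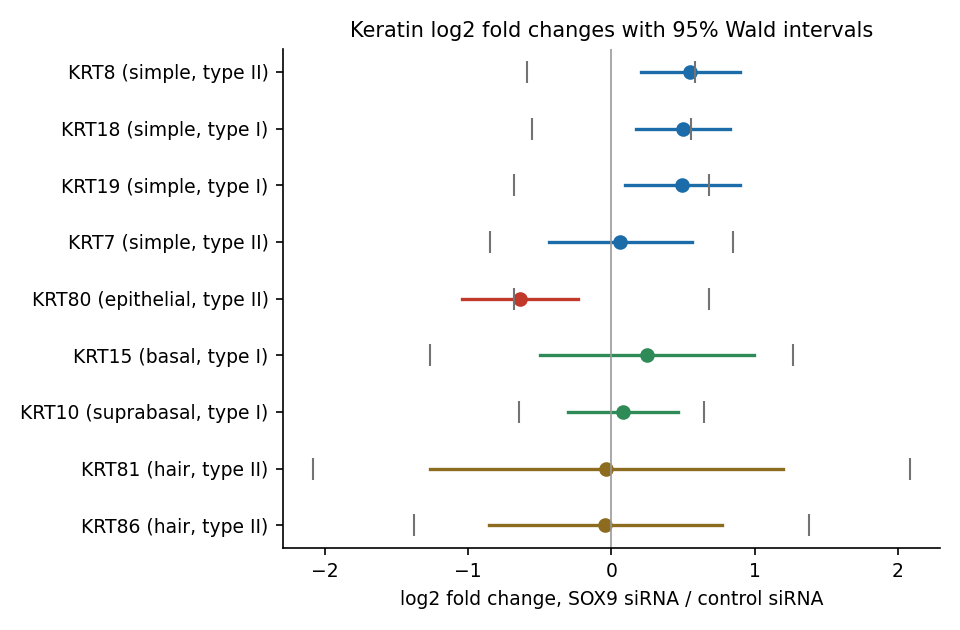
Log2 fold change (SOX9 siRNA over control siRNA, horizontal axis) of the 9 tested keratins, with points for the authors' estimates, lines for 95% Wald intervals and grey ticks for the smallest change that would have been called at that gene's standard error. KRT8 at 0.55 and KRT80 at -0.64 lie just short of their ticks at 0.59 and -0.68, and the intervals of KRT7, KRT15, KRT10, KRT81 and KRT86 include 0.

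The abundant simple keratins had nearly equal values. The authors' deposited table gave KRT8, the type II chain of simple epithelium, a mean normalized count of 203350.1 and a log2 fold change of 0.55 ± 0.18 (standard error; adjusted p = 0.0786). This is 1.47-fold, with a 95% interval from 1.15 to 1.86. From the mean and the fold change, its level came to about 164983 normalized counts in control cells and 241717 after SOX9 siRNA. For its partner KRT18, with a mean of 130452, the authors' deposited table gave 0.50 ± 0.17 on the same scale (adjusted p = 0.106), or 1.41-fold (1.13 to 1.77). The implied levels of KRT18 were 108127 in control and 152778 after SOX9 siRNA. KRT19, the type I duct keratin, was listed in the authors' deposited table with a mean of 99583 and a log2 fold change of 0.50 ± 0.21 (adjusted p = 0.259), or 1.41-fold (1.07 to 1.86). Its implied levels were 82638 and 116528. All 3 intervals lie above 1-fold, yet none of the genes passed once p was adjusted over all genes.

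These 3 genes stood within 0.06 of each other on the log2 scale, less than the standard error of any of them. Taking the errors of 2 genes as independent, which the table cannot show since they come from the same libraries, the KRT8 minus KRT18 difference was 0.05 (95% interval -0.42 to 0.53). The KRT8 minus KRT19 difference was 0.06 (-0.48 to 0.59). The implied ratio of KRT8 to KRT18 counts was 1.53 in control cells and 1.58 after SOX9 siRNA, close as point estimates. The interval of the KRT8 minus KRT18 difference is too wide to show that the proportion was kept. The genes are not all neighbours: KRT8 and KRT18 lie side by side on chromosome 12, and KRT19 lies on chromosome 17.

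KRT8, KRT18 and KRT19 made up 98.6% of the normalized counts of the 10 members and 0.909% of those of all genes. Their summed implied level was 355748 in control and 511023 after SOX9 siRNA. Counts grow with transcript length and are no ranking of expression between genes. Among the 24 genes with a mean count at or above that of KRT19, 4 had a log2 fold change at least as high as KRT19's 0.50. These were KRT8, KRT18, KRT19 and the nuclear noncoding RNA MALAT1 at 0.52, a gene named after its value was seen. The next highest was the actin gene ACTG1 at 0.11. Both limits were KRT19's own values, so KRT19 is counted by construction and the count is a description. Among the 500 tested genes with the highest counts, 2.4% had a log2 fold change at or above that of KRT19. In the same 500 genes, 3.8% were higher at an unadjusted p under 0.05. Both shares include KRT8, KRT18 and KRT19. The median of those 500 genes was -0.08. Measured from that median, KRT8 was at 0.63 (adjusted p = 0.0303), KRT18 at 0.58 (adjusted p = 0.0405) and KRT19 at 0.58 (adjusted p = 0.149), by the Wald test with Benjamini-Hochberg adjustment. Under this centring KRT8 and KRT18 therefore passed the threshold that they missed as deposited. Calls under this centring were counted only after the data were seen. Centred on the median of all tested genes, neither passed by the same test (adjusted p = 0.0660 for KRT8 and 0.0894 for KRT18). Nor did either pass when the deposited Wald p was adjusted over every gene (0.111 and 0.149).

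**Figure D2:**
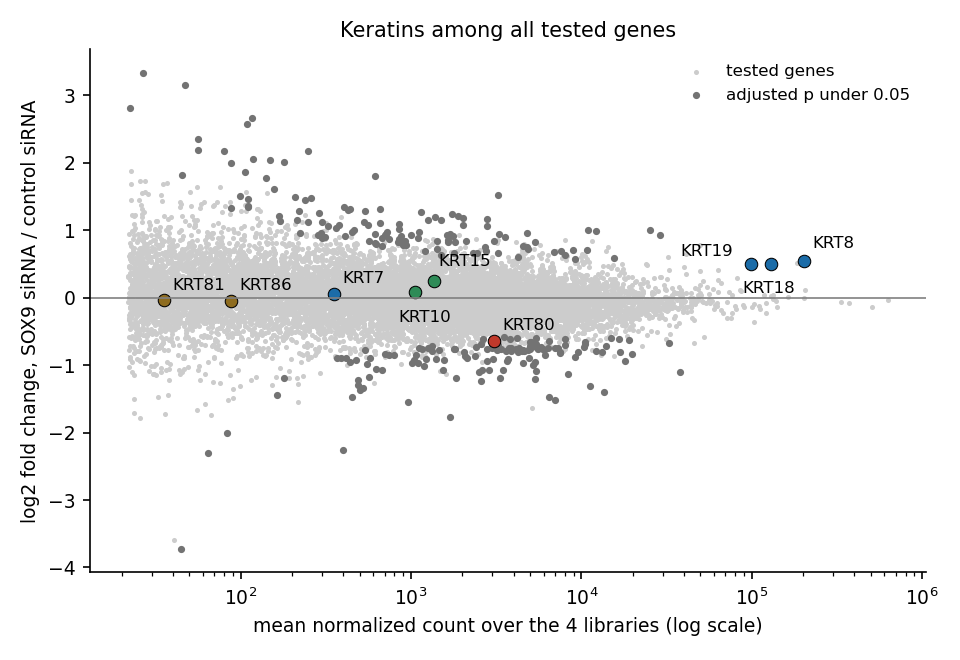
Log2 fold change (vertical axis) against mean normalized count over the 4 libraries (horizontal axis, log scale) for all 14063 tested genes, in light grey, with genes at an adjusted p under 0.05 in dark grey and the 9 tested keratins in colour. KRT8, KRT18 and KRT19 sit at the far right near 0.5, above most genes of like count, and KRT80 sits at -0.64 at the edge of the called genes.

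Shared reads may bear on these values. RefSeq lists 52 KRT8 and 68 KRT18 pseudogenes by symbol, and near-identical copies may take or give reads; 1 of each is in the table, KRT8P41 with a mean normalized count of 6.67 and KRT18P55 with 2.25 in the authors' deposited table. The RefSeq spans of KRT8 and KRT18 also overlap. The sources used here do not state if counting was by strand, and the effect of shared reads on the fold changes was not tested.

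KRT7, the type II duct keratin, had a value near 0. Its mean normalized count was 353.9 and its log2 fold change 0.06 ± 0.26 (adjusted p = 0.976) in the authors' deposited table. This is 1.04-fold, with a 95% interval from 0.738 to 1.48, which includes the 1.41-fold of KRT19. The KRT7 minus KRT8 difference was -0.49, with a standard error of 0.31 under independent errors. Its 95% interval ran from -1.10 to 0.12 and included 0, so a difference between the 2 type II simple keratins was not resolved.

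KRT80 went the other way by point estimate. In the authors' deposited table its mean normalized count was 3086 and its log2 fold change -0.64 ± 0.21, which is 64.2% of control (95% interval 48.6% to 84.9%). Its adjusted p there was 0.0796, so KRT80 missed the threshold by about as little as KRT8. The implied KRT80 levels were 3758 normalized counts in control and 2413 after SOX9 siRNA. Of all tested genes, 3.07% had a log2 fold change as low or lower. KRT8 minus KRT80 was 1.19 on the log2 scale (95% interval 0.66 to 1.72 under independent errors), and KRT18 minus KRT80 was 1.14 (0.62 to 1.66). KRT7 minus KRT80 was 0.70 (0.06 to 1.34). These contrasts between members were picked after their values were seen and are a description. KRT80 and KRT7 are next to each other in the RefSeq order of coding genes on chromosome 12, followed by KRT86 and KRT81.

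The keratins of stratified epithelium showed no change that could be detected. By the authors' deposited table, KRT15 had a mean normalized count of 1360.0 and a log2 fold change of 0.25 ± 0.38 (adjusted p = 0.915), or 1.19-fold (95% interval 0.707 to 2.00). KRT15 neighbours KRT19 on chromosome 17. KRT10 had a mean of 1061 and a log2 value of 0.08 ± 0.20 there (adjusted p = 0.960), or 1.06-fold (0.810 to 1.38). KRT17 was close to undetected, with a mean normalized count of 2.68, about 10.7 normalized reads over the 4 libraries together. Its 95% interval ran from 0.0725-fold to 50.8-fold, and no adjusted p was given for it.

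The standard errors are the authors' from DESeq2, which draws each gene's spread toward that of genes of like count, so they are not a direct measure of how far the libraries of 1 gene differed. KRT15 had a standard error 1.98 times the median of the 500 tested genes nearest in mean count, above 99.2% of them. KRT19 stood at 1.23 times and KRT80 at 1.17 times their own such medians, above 84.4% and 81.4% of genes of like count. KRT18 (1.00 times), KRT8 (1.06), KRT10 (0.966) and KRT7 (0.968) were near the median. A log2 fold change of 0.59 for KRT8, 0.56 for KRT18, 0.68 for KRT19 and KRT80, 0.65 for KRT10, 0.85 for KRT7 and 1.27 for KRT15 would have been needed for a call. For the fold observed at KRT19 (log2 0.50), none of the 9 genes had a standard error small enough to be called.

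**Figure D3:**
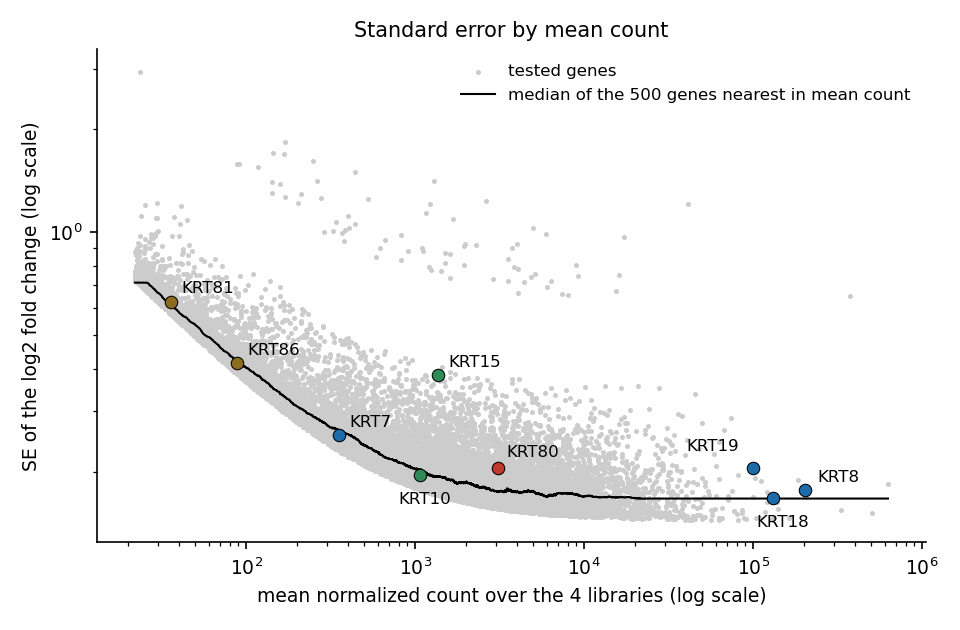
Standard error of the log2 fold change (vertical axis, log scale) against mean normalized count (horizontal axis, log scale) for all tested genes in grey and the 9 tested keratins in colour; the black line is the median of the 500 tested genes nearest in mean count. KRT15 lies at 1.98 times that line, while KRT8, KRT18, KRT10, KRT7, KRT86 and KRT81 lie close to it.

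Of the hair keratins, KRT86 had a mean normalized count of 88.2 and a log2 fold change of -0.04 ± 0.41 (adjusted p = 0.990) in the authors' deposited table. The same table gave KRT81 a mean of 35.7 and a log2 fold change of -0.03 ± 0.63 (adjusted p = 0.994). Their intervals were 0.552-fold to 1.71-fold for KRT86 and 0.416-fold to 2.29-fold for KRT81, so even a change by 1.5-fold either way was not detectable at this depth. In RefSeq the KRT81 span lies wholly inside that of KRT86 and their sequences are closely related, so how reads were split between them is uncertain. HOXC13 is a homeobox factor that drives hair keratin genes, picked here with its value in view. It had a mean of 2424 and a log2 fold change of -0.60 (adjusted p = 0.122) in the authors' deposited table.

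Few other keratins were seen. Of 45 other keratin genes listed, 17 had a row in the table and 2 were tested. Of these 2, 0 were called, against 1.81% of all tested genes. At an unadjusted p under 0.05 there was 1, against 11.1% of all tested genes, and counts over 2 genes say little. KRT32, a type I hair keratin, had a mean normalized count of 34.6 and a log2 fold change of 1.43 ± 0.64 (adjusted p = 0.336) in the authors' deposited table. KRT4, a keratin of the lining of the mouth and oesophagus, had a mean of 22.5 and a log2 fold change of -0.88 ± 0.90 (adjusted p = 0.836) there. The hair keratin KRT83, the most abundant of those not tested, had a mean of 15.6 in the authors' deposited table. The basal keratin KRT14 was at 0.475 and KRT16, which pairs with KRT6 chains in injured skin, at 7.24 in the authors' deposited table, while KRT5, KRT6A and KRT20 had no row. The 2 keratin-associated protein genes in the table reached 1.54 at most.

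Other intermediate filament genes, and genes that bind, anchor or regulate keratins, were counted from 4 lists with 74 tested members. Of these 74, 0 rose and 2 fell, against 0.868% and 0.939% of all tested genes. Both that fell anchor cells or filaments. ITGA6, the integrin chain of hemidesmosomes, fell to 63.4% of its control level (95% interval 50.6% to 79.6%, adjusted p = 0.0103) by the authors' deposited table. PKP3, a plakophilin among several proteins of the desmosomes that anchor keratin filaments, fell to 65.4% (51.3% to 83.3%, adjusted p = 0.0403) in the authors' deposited table. The call of PKP3 ended when fold changes were centred on genes of like mean count (adjusted p = 0.102) and when p was adjusted over every gene (0.0566). Both calls ended under an empirical null, at 0.0692 for ITGA6 and 0.169 for PKP3.

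The plakins and desmosome anchors had 11 of 15 tested members below 0, a median log2 fold change of -0.29, and 4 lower and 0 higher at an unadjusted p under 0.05. Over all 14063 tested genes, 7326 were below 0, the median was -0.02, and 6.15% were lower and 4.98% higher at that p. Besides the called genes, the lower ones were EPPK1, a plakin that bundles keratin, at -0.88 (adjusted p = 0.167) and the desmosomal cadherin DSG2 at -0.58 (adjusted p = 0.328) in the authors' deposited table, both named after their values were seen. PLEC, the plakin that ties filaments to hemidesmosomes and the uncalled member with the highest count, was at 0.25 (adjusted p = 0.696) in the authors' deposited table. ITGB4, the partner chain of ITGA6, was at 0.29 (adjusted p = 0.58), also named after its value was seen.

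The other 3 lists had 0 called genes, and their counts at an unadjusted p under 0.05 stand against the same 4.98% higher and 6.15% lower, or 11.1% in all. Other intermediate filament genes had 11 tested members with a median of 0.05, and 2 were higher at an unadjusted p under 0.05: LMNA, the nuclear lamin A gene, at 0.46 (adjusted p = 0.215) and the lens filament gene BFSP1 at 0.71 (adjusted p = 0.0900) in the authors' deposited table, both named after their values were seen. VIM, the vimentin of mesenchymal cells and the uncalled filament gene with the highest count, had a log2 fold change of 0.05 (95% interval -0.24 to 0.33, adjusted p = 0.971) in the authors' deposited table. Keratin-binding and keratin-handling genes had 21 tested members with a median of 0.001 and 3 at an unadjusted p under 0.05, and their most abundant member HSPA8, a chaperone, was at -0.14 (adjusted p = 0.848) in the authors' deposited table. Transcription factors known for keratin genes had 27 tested members with a median of -0.002, and 2 higher and 5 lower at an unadjusted p under 0.05. ETS2, the most abundant, was at -0.29 (adjusted p = 0.761) in the authors' deposited table. The listed subunits of the factor AP-1, picked with their values in view, differed in sign there: FOSL1 was at -0.69 (adjusted p = 0.0643), while JUN was at 0.57, FOSL2 at 0.22 and JUNB at 0.15, and none was called.

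**Figure D4:**
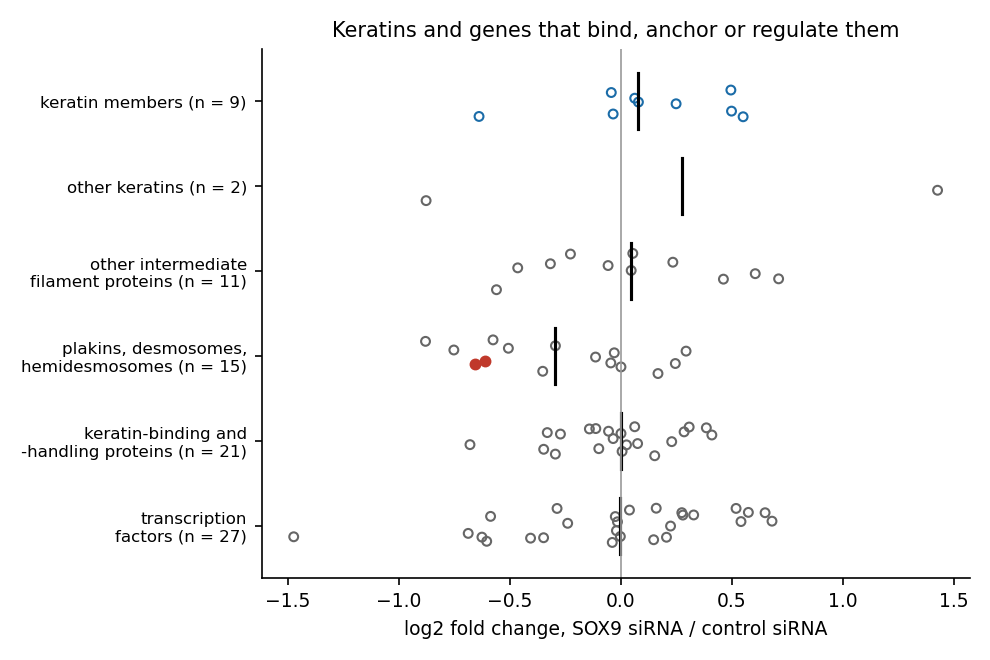
Log2 fold change (horizontal axis) of each tested gene in the keratin members, the other keratins and 4 lists of related genes; open circles are genes not called, filled red circles genes at an adjusted p under 0.05, and black bars the medians. The keratin members spread from -0.64 to 0.55, and the only filled circles are ITGA6 and PKP3, in the list of plakins, desmosomes and hemidesmosomes with a median of -0.29.

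The epithelial adhesion gene EPCAM, also a marker of simple epithelium, fell to 29.5% of its control level by the authors' deposited table, while KRT8, KRT18 and KRT19 had positive values that were not called. Of the 9 tested markers of duct and simple epithelium, which include 4 of the keratins and SOX9, 7 were above 0 and 2 below, and EPCAM was the 1 called, where 47.9% of all tested genes were above 0 and 1.81% were called. The marker CLDN4, a tight junction protein, had a log2 fold change of 0.36 (adjusted p = 0.759) and CDH1, the epithelial cadherin, 0.63 with a standard error of 0.77 (adjusted p = 0.877) in the authors' deposited table.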

How the data were processed

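RNA was measured in 2 libraries of PANC-1 cells with SOX9 siRNA and 2 with control siRNA, sequenced with a stated depth of no fewer than 60000000 reads of 100 bp from both ends, per the labels' protocols. Tools named in the submitters' processing notes are DESeq2 1.18.1, featureCounts and HISAT2 2.0.5, without settings. Those notes list the mouse build mm10 and the human build hg19, and do not state which was used. The cells and the gene symbols are human. Per the file headers, the authors deposited a DESeq2 table: a mean normalized count (a signal averaged over libraries after size-factor scaling), a log2 fold change with its log2 standard error, the Wald statistic (a score), a p-value and an adjusted p-value. The statistic equals the ratio of fold change to standard error to within 3.6e-14. The mean normalized counts sum to 47653185, and single libraries' depths are not given. The 5767 genes with no adjusted p had means of 21.93 or less.

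Values were computed with Python 3.11.15, pandas 2.3.3 and scipy 1.17.1. Intervals are 1.96 standard errors each way. Control and SOX9 siRNA levels were derived from the mean count and the fold change as if both groups weighed equally, and have no error of their own. Calls were made where the adjusted p was under 0.05 over all 14063 tested genes; the largest p so called was 0.000901, which with each standard error gives the smallest change that could be called. Alternatives were other thresholds, adjustment over every gene or over genes with a mean of at least 100, centring, an empirical null and a test against a 1.5-fold change. The steps were tested on simulated data. The members and lists were chosen with earlier results of these data known. Each member was named, as were called list genes, the most abundant uncalled gene of each list and the tested other keratins.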

Additional observations from a re-analysis of the deposited data

How the results depend on the processing

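The count of called keratins was 0 of 9 as deposited. It was 2 at an adjusted p threshold of 0.1 (KRT8 and KRT80; 2.62% of all tested genes passed), and 2 (KRT8 and KRT18, both higher) when fold changes were centred on genes of like mean count, a count added after the data were seen, under which 209 genes were called in all. It was 0 at a threshold of 0.01, with genes of a mean count of at least 100, after centring on the median of all tested genes, under the empirical null, against a 1.5-fold change and adjusted over every gene. The adjusted p of KRT8 ran from 0.0303 with centring on genes of like count to 0.227 under the empirical null, and 1 against a 1.5-fold change. No tested member changed sign under the 2 centrings. The count of other keratins called was 0 of 2 tested as deposited and 0 under the other settings, but with a mean count of at least 100 none of them was left to test, so that 0 says nothing. The 2 called genes of the 4 related lists became 4 at a threshold of 0.1, 1 when adjusted over every gene or centred on genes of like count, and 0 at a threshold of 0.01, under the empirical null and against a 1.5-fold change, where 3 genes of the whole table passed. Over all genes 254 were called as deposited, 368 at a threshold of 0.1, 109 at 0.01 and 96 under the empirical null. No paired analysis was possible because the table holds no values per library, and leaving out a replicate could not be run for the same reason. Low counts limit KRT81, KRT86 and KRT17.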
